A study of Homo sapiens with 36 samples.

Results

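The clustered enhancers of A549 were 512 stretches of chromosomes 1 to 12 in which at least 5 distal H3K27ac peaks lay close together. They were chosen by the A549 H3K27ac peak calls alone: peaks more than 1 kb from any annotated start site were kept, neighbours were stitched when the gap between them was at most 12.5 kb, and stitched regions of 5 or more peaks were called clusters. Of 28190 A549 H3K27ac peaks on these chromosomes, 14193 were distal and fell into 7045 stitched regions. The 512 clusters held 4722 of the 14193 distal peaks, or 33.3%, and the remaining 9471 peaks lay in 6533 regions of 1 to 4 peaks. Number, spacing and height of A549 H3K27ac peaks are therefore given below as a description only.

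The study profiled chromatin proteins by ChIP-seq, in which DNA bound by a protein or carrying a histone mark is pulled down with an antibody and sequenced, in 2 human lines. A549 is a lung adenocarcinoma line with mutant KEAP1, and BEAS-2B (B2B) is an immortalized, non-cancerous line of bronchial epithelium; both were grown without treatment in the same serum-containing medium. Each of the 18 groups held 2 libraries, 16 groups gave 1 peak list each from the merged pair of replicates, and the other two were input DNA. H3K27ac, H3K4me3, RNA polymerase II (pol II), Med1, JunB, Jun and JunD were mapped in both lines, while the CTCF and Rad21 lists used here came from B2B only. Because each list pools its replicates, no value below carries a replicate error. Read depth cannot be read from the lists, the lines differ in the length of most lists, and 1 line stands on each side, so a difference between A549 and B2B applies to these lists and cannot be told apart from a difference in depth.

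Enhancers are stretches of DNA, often far from the genes they act on, that bind transcription factors and carry acetylated histone H3 at lysine 27 when they are active. Where many lie side by side, as in what are often called super-enhancers, they tend to sit near genes that set the identity of a cell, and they are known for loading large amounts of Mediator, the complex that connects factors bound at enhancers with RNA polymerase II and that contains Med1. JunB, Jun and JunD are subunits of AP-1, a dimeric factor that answers growth and stress signals and recognizes the bases TGACTCA.

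The bases under an A549 Jun peak of selected clusters are shown first, to give the sequence at which Jun was called within them; in each cluster it is the Jun peak of highest fold among those that overlap a member peak, and in PFKP, KRT80, TBC1D8 and FZD10 a higher Jun peak lay elsewhere in the span. Each run is the hg38 plus strand from 50 bases before to 50 bases after the Jun summit, and capitals mark the AP-1 motif TGACTCA or its reverse complement TGAGTCA. The first 5 come from the clusters with the most peaks among those with a member peak overlapped by JunB, Jun and JunD together. The ZMIZ1 window (chr10:79157665-79157765) lay in an intron of ZMIZ1, the DDIT4-DNAJB12 window (chr10:72320846-72320946) and the KRT80 window (chr12:52147442-52147542) between genes, the PFKP window (chr10:3071558-3071658) in an intron of PFKP and the EEIG1 window (chr9:127955550-127955650) in an intron of EEIG1.
ZMIZ1: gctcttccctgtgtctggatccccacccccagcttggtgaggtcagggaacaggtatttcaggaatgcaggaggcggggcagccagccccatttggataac
DDIT4-DNAJB12: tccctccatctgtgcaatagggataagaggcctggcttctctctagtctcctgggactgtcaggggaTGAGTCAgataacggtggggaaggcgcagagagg
PFKP: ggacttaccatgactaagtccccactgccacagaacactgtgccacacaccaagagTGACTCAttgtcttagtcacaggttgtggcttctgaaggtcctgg
EEIG1: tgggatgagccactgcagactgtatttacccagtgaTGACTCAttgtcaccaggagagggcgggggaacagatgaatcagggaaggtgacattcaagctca
KRT80: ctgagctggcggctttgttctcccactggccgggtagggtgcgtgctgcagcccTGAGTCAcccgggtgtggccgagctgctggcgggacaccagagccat
Of these 5 windows, 4 held the motif, within 17 bases of the summit on either side, and the ZMIZ1 window, which had the highest Jun enrichment of these 5 peaks (72.1-fold in the authors' list), did not hold these letters. The PFKP summit lies just before the first base of its cluster, and its Jun peak reaches into it. All of these 5 Jun peaks also overlapped JunB, JunD, Med1 and pol II peaks of A549. In B2B, Jun peaks lay at the same place for all but the PFKP window.

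The next 3 windows come from clusters without any B2B H3K27ac peak in the span, in an intron of CPLX2 (chr5:175843019-175843119), in an intron of TBC1D8 (chr2:101080447-101080547) and between genes near FZD10 (chr12:130119642-130119742).
CPLX2: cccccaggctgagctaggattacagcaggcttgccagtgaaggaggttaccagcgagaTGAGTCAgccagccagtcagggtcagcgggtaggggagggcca
TBC1D8: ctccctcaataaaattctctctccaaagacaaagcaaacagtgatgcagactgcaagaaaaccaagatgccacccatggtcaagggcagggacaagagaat
FZD10: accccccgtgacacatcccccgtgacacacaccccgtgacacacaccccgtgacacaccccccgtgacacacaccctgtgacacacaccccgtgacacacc
The CPLX2 window held the motif 8 bases past the summit, and its Jun peak (18.1-fold) also overlapped a B2B Jun peak although no acetylation was called there in B2B. The TBC1D8 window had no motif and a low Jun enrichment of 9.97-fold. The FZD10 window was a short tandem repeat without the motif, and none of the other lists examined there, JunB, JunD, Med1 and pol II of A549 included, overlapped its Jun peak.

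Clusters ranged from 5 to 49 member peaks with a median of 7, and from 2.82 to 115 kb in span with a median of 17.5 kb. In all they spanned 11118948 bp, of which their member peaks covered 2412775 bp. Most were small: 125 of 512 held exactly 5 peaks, 233 held 8 or more and 34 held 20 or more. Neighbouring peaks of a cluster were separated by a median of 0.686 kb, and 57.9% of the 4210 gaps were under 1 kb, so many clusters held runs of nearly adjacent peaks. When peaks under 1 kb apart were counted as 1, only 186 clusters remained under the same rule. An annotated start site lay within the span of 255 clusters (49.8%), since the rule removes promoter peaks but not promoters between kept peaks, and 375 clusters (73.2%) overlapped a protein-coding gene. Summits of member peaks lay in introns of coding genes for 56.4%, in exons for 6.29% and between coding genes for 37.3%. For other distal peaks these shares were 46.3, 5.46 and 48.2%. The counts of clusters with a start site or a coding gene have no share of shorter regions beside them.

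**Figure D1:**
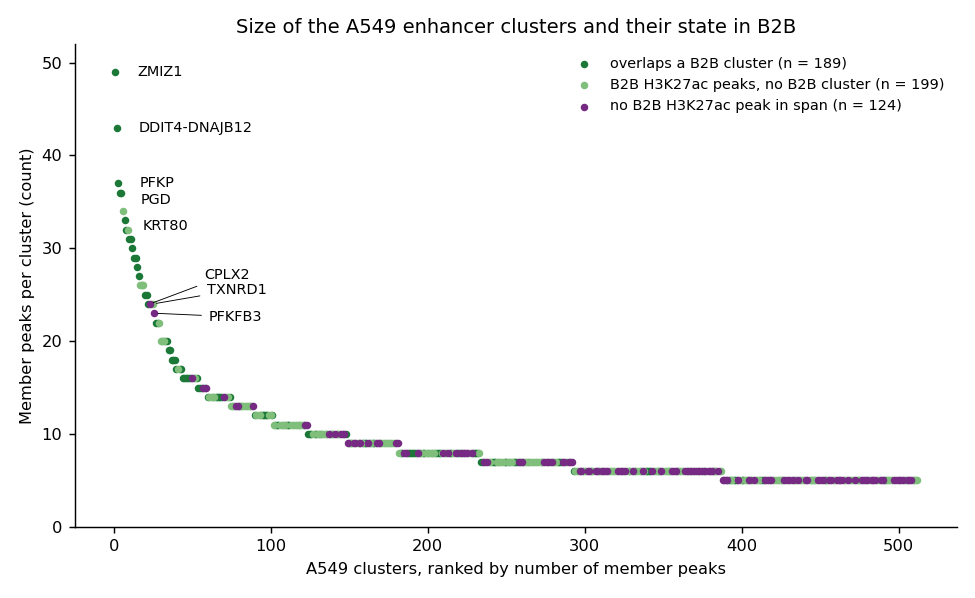
Number of member peaks (vertical axis, count) of the 512 A549 clusters, ranked from most to fewest along the horizontal axis, with 1 point per cluster colored by its H3K27ac state in B2B. A short steep arm of 34 clusters with 20 or more peaks stands before a long tail of clusters of 5 to 19 peaks, and CPLX2 and PFKFB3 are the 2 clusters of that arm without a B2B H3K27ac peak.

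The identity of the lines was checked at a few promoters. CDKN2A, a cell cycle inhibitor gene that is deleted in A549, had 0 H3K4me3 and 0 H3K27ac peaks within 1 kb of a start site in A549 against 4 and 5 in B2B. The neighbouring MTAP had 1 H3K4me3 and 2 H3K27ac peaks in either line, which does not show a loss there. KRT8, a keratin of simple epithelia, was marked in both lines (3 H3K4me3 peaks in each), the basal keratin KRT5 was marked in neither, and VIM carried H3K4me3 in both (1 peak in A549 and 3 in B2B). TP63, the basal airway regulator, had 1 H3K4me3 peak in A549 and 0 in B2B, and no H3K27ac peak in either.

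Med1 was more frequent at peaks of clusters than at other distal peaks. In A549, 1060 of 4722 member peaks overlapped a Med1 peak by at least 1 bp (22.4%), against 1474 of 9471 other distal peaks (15.6%) and 17.9% of all 14193 distal peaks. The difference was 6.88 percentage points, with a 95% interval of 4.77 to 9.0 when whole stitched regions rather than peaks were taken as the unit. All intervals for differences below are of this kind unless another is named; they hold the counting error and the spread between regions, but no replicate error. At least 1 Med1 peak lay in the span of 413 of the 512 clusters (80.7%), a count that long spans favour and that has no share of shorter regions beside it. The median cluster had Med1 at 18.2% of its member peaks, and the lower quartile was 0. Member peaks were wider than other peaks (median 337 against 302 bp), and wider peaks overlap more. With the other peaks standardised to the widths of member peaks, the Med1 difference was 4.68 points (2.54 to 6.81).

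RNA polymerase II followed the same direction, with 41.4% of member peaks overlapped against 34.6% of other peaks (36.8% of all distal peaks). H3K4me3, the mark of active promoters, went the other way: 18.0% of member peaks carried it against 35.3% of other distal peaks (29.6% of all). Among regions of a single peak the H3K4me3 share was 43.5%, and it was 13.8% at clusters of 15 or more peaks. All of these peaks lay more than 1 kb from an annotated start site, by the rule.

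The Jun-family proteins were present in most clusters but at a minority of their acetylated peaks. In A549, JunB overlapped 944 member peaks (19.99%), Jun 947 (20.1%) and JunD 322 (6.82%). All distal peaks gave 18.2% for JunB, 18.4% for Jun and 5.7% for JunD. Member peaks exceeded the other peaks by 2.73 points for JunB (1.15 to 4.30), by 2.52 points for Jun (0.968 to 4.07) and by 1.68 points for JunD (0.809 to 2.55). These small differences depended on how the sets were drawn: standardised for peak width they were 1.29 points for JunB (-0.305 to 2.90), 1.02 for Jun (-0.558 to 2.60) and 0.896 for JunD (-0.00622 to 1.80), intervals that all include 0. At the level of whole clusters, 464 of 512 (90.6%) held a peak of at least 1 of the 3 proteins in the span. All 3 were held by 302 (59.0%), and 211 (41.2%) had a member peak overlapped by all 3 at once. These counts have no share of shorter stitched regions beside them, and longer spans have more room for a peak.

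**Figure D2:**
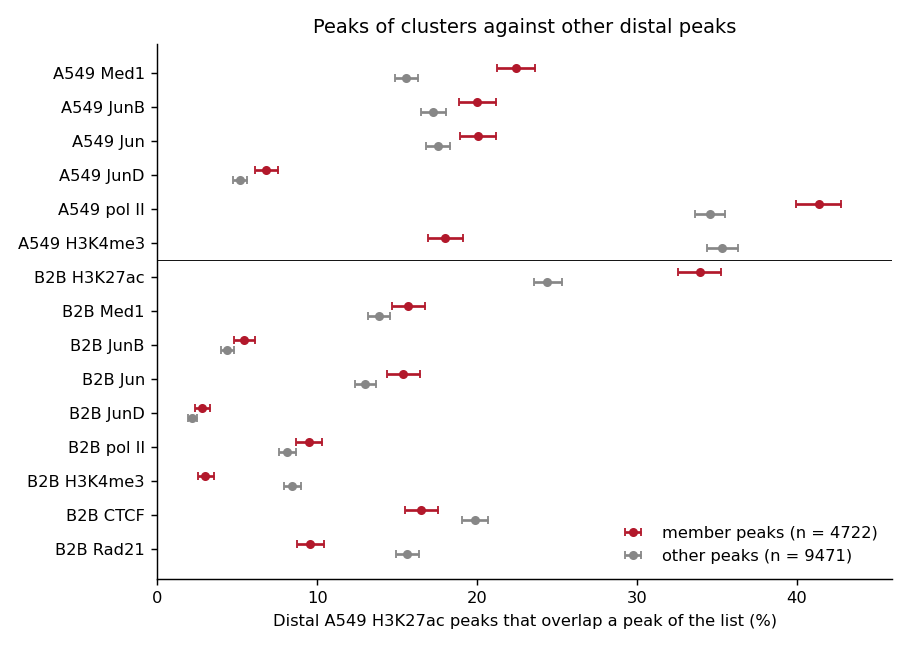
Percentage of the 4722 member peaks (red) and of the 9471 other distal A549 H3K27ac peaks (grey) that overlap a peak of each list, with Wilson 95% intervals that cover counting error only; the line separates A549 lists from B2B lists. Member peaks lie above other peaks for Med1 (22.4 against 15.6%), pol II and B2B H3K27ac (33.9 against 24.4%), close to them for the Jun proteins, and below them for H3K4me3, CTCF and Rad21.

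The Jun share did not climb with the number of peaks in a region. Jun overlapped 13.9% of peaks that stood alone (95% Wilson interval 12.9 to 14.9), 21.0% in regions of 2 to 3 peaks, 20.7% in regions of 4 peaks, 21.7% in clusters of 5 to 7, 19.8% in clusters of 8 to 14 and 18.5% in clusters of 15 or more (16.5 to 20.6). The step therefore lay between single peaks and groups of 2 or more, below the threshold of the rule. Med1 had 12.5%, 17.9%, 20.7%, 21.5%, 22.8% and 23.1% in the same order of sizes. At the threshold itself, regions of 4 peaks, just outside, and clusters of exactly 5, just inside, had Med1 at 20.7 and 23.4% of peaks, Jun at 20.7 and 23.2%, and B2B H3K27ac at 28.7 and 32.6%.

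Med1 and the Jun proteins met at the same member peaks. Of the 1060 member peaks with Med1, 66.7% also overlapped a peak of JunB, Jun or JunD, against 11.1% of the 3662 member peaks without Med1, a difference of 55.6 points (51.2 to 59.9). Of the 306 member peaks (6.48%) overlapped by all 3 Jun proteins, 91.2% carried Med1, against 17.7% of the other member peaks. JunD was found at 27.7% of member peaks with Med1 and at 0.765% of those without. Pol II lay at 88.2% of member peaks with Med1 and at 27.8% of the rest. The overlap of Med1 with Jun proteins was not particular to clusters. Counted over distal Med1 peaks, a Jun-family peak overlapped 58.4% of the 7486 outside clusters. It overlapped 31.2% of the 109 in the clusters assigned to NRF2 target genes, described below, and 63.0% of the 1231 in all other clusters. These shares were not standardised for peak width.

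Many Jun summits lay beside the acetylated peaks rather than in them. Within the cluster spans, 1490 A549 Jun summits were counted, of which 33.6% lay inside a member peak, 13.5% inside another A549 H3K27ac peak, such as one at a promoter, and 52.9% between H3K27ac peaks (95% Wilson interval 50.4 to 55.4). For JunB, 43.7% of 1353 summits lay between peaks, for JunD 40.1% of 581, and for Med1 32.2% of 1653. Those between peaks were near the edges: the median Jun summit outside an H3K27ac peak was 150 bp from the nearest one, and 78.0% of them were within 500 bp, a zone that made up 25.9% of the span. Per 100 kb of span, Jun had 34.8 summits more than 200 bp inside an H3K27ac peak, 13.7 in the 200 bp just inside an edge, 29.4 in the 200 bp just outside and 2.59 at more than 1 and up to 2 kb outside. Med1 fell without that dip, from 43.4 to 31.4 to 15.2 to 2.42 in the same zones. Only wide peaks have bases more than 200 bp inside, and the median member peak was 337 bp wide. The 2 inner zones therefore draw on different sets of peaks, and the dip was not examined at matched peak width. In stitched regions of 2 to 4 peaks a larger share of Jun summits, 63.4% of 1403, lay between peaks (60.8 to 65.8). Other H3K27ac peaks, such as those at promoters, held 7.27% of Jun summits there, against 13.5% in clusters. The part of those shorter regions covered by H3K27ac peaks was not computed, so the shares are not matched for coverage. When the summit itself had to fall inside the acetylated peak, the Jun share of member peaks dropped to 9.36% and the Med1 share to 15.4%.

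**Figure D3:**
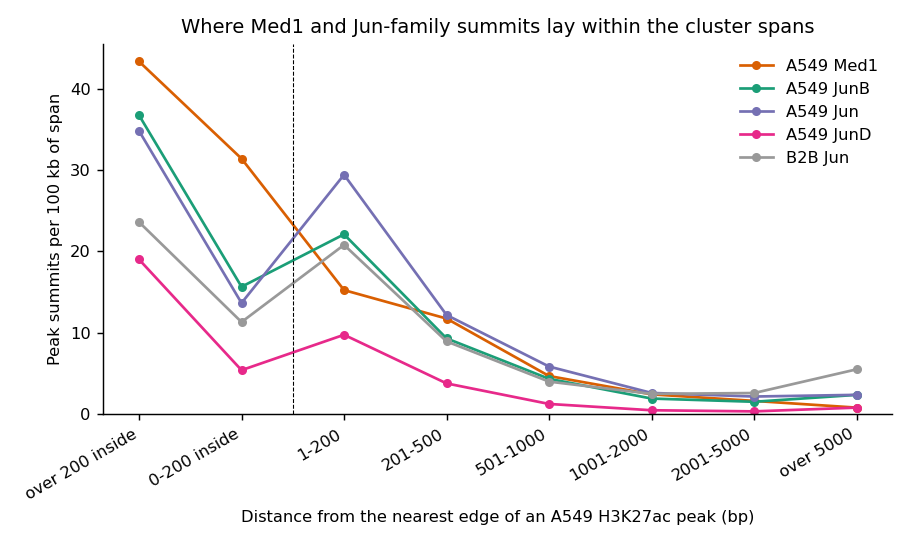
Summits of Med1, JunB, Jun and JunD of A549 and of Jun of B2B per 100 kb of cluster span (vertical axis), by distance in bp from the nearest edge of any A549 H3K27ac peak (horizontal axis), with the dashed line at the edge. The Jun lines dip just inside the edge and rise again just outside it, for A549 Jun from 13.7 to 29.4, whereas Med1 declines from 31.4 to 15.2 across it. The zone more than 200 bp inside comes from wide peaks only.

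The AP-1 motif itself was not more common at member peaks. TGACTCA on either strand lay within 250 bp of the H3K27ac summit for 14.1% of member peaks and 14.55% of other peaks (14.4% of all distal peaks), a difference of -0.467 points with an interval of -1.79 to 0.853. Windows of the same length 2 kb away held it in 10.1% of cases for member peaks and 8.17% for other peaks. Near member peaks such windows can fall on a neighbouring peak of the cluster. Within 100 bp the order was the opposite for member peaks, with 3.6% at summits and 4.21% in the windows 2 kb away. It was not for other peaks, with 3.66% and 3.33%. Member peaks with the motif overlapped a Jun-family peak of A549 in 59.4% of 665 cases, against 17.7% of the 4057 without it. Around distal Jun-family summits inside the spans, the motif lay within 50 bp for 53.6% of JunB, 45.5% of Jun and 55.4% of JunD peaks. Outside the clusters the shares were 51.4, 47.5 and 44.5%, and of the 3 differences only that of JunD had an interval without 0 (10.85 points, Newcombe 95% interval 5.98 to 15.6). In B2B the motif lay at 70.8% of JunB and 72.8% of JunD summits in the spans, against 50.3 and 42.3% elsewhere. The median fold enrichment of A549 Jun peaks was 12.7 inside the spans and 9.76 at distal sites elsewhere, and for JunB it was 8.86 and 7.02. For JunD of A549 it was 6.31 and 5.84, but Med1 of A549 was lower inside, at 6.46 and 6.71. In B2B the medians inside and elsewhere were 9.84 and 8.97 for Jun and 6.02 and 6.79 for JunB. They were 5.64 and 5.56 for JunD and 6.03 and 5.80 for Med1.

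Most member peaks were not called in B2B. A B2B H3K27ac peak overlapped 1602 of the 4722 member peaks (33.9%) against 24.4% of the other distal A549 peaks (27.6% of all), a difference of 9.52 points (6.44 to 12.6). Both sets were chosen on A549 peaks, so a share below 100% in B2B is partly set by the choice. The difference between the sets is less so, but member peaks were wider. With other peaks standardised to the widths of member peaks, it was 7.48 points (4.39 to 10.6). The same rule applied to B2B gave 444 clusters, and 189 A549 clusters (36.9%) overlapped at least 1 of them, while 185 of the 444 B2B clusters (41.7%) overlapped an A549 cluster. A further 199 A549 clusters had B2B H3K27ac peaks in the span without forming a B2B cluster, and 124 (24.2%) had none. Clusters that overlapped a B2B cluster were larger, with a median of 8 peaks and 23.6 kb, against 6 peaks and 15.04 kb for those without a B2B peak. A longer span has more room to meet a B2B peak or cluster, so this order is partly set by size. In 21 clusters every member peak was acetylated in B2B.

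The factor lists of B2B covered fewer of these peaks. Med1 of B2B overlapped 15.7% of member peaks (14.5% of all distal peaks), Jun 15.4% (13.8%), JunB 5.42% (4.73%), JunD 2.80% (2.37%) and pol II 9.47% (8.57%). H3K4me3 of B2B overlapped 2.99% (6.62%). The insulator protein CTCF overlapped 16.5% of member peaks (18.7% of all distal peaks) and Rad21, a subunit of the cohesin ring that holds DNA loops, 9.55% (13.6%). Member peaks lay below other peaks for both, by 3.36 points for CTCF (interval -4.96 to -1.77) and by 6.08 points for Rad21 (-7.36 to -4.79). For Med1 the member minus other difference in B2B was 1.80 points with an interval that included 0 (-0.0730 to 3.67).

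AP-1 occupancy at member peaks was nested between the lines for JunB. Of the 256 member peaks with B2B JunB, 249 (97.3%) also had A549 JunB, whereas 26.4% of the 944 peaks with A549 JunB had B2B JunB. The B2B JunB list held 6318 peaks on these chromosomes and the A549 list 19926. With the lists of each target cut to equal length, H3K27ac included, so that the clusters were drawn anew, JunB covered 14.6% of member peaks in A549 and 6.35% in B2B. For Jun, 583 member peaks were shared, or 61.6% of those in A549 and 80.3% of those in B2B. The sharing between the lines was counted at member peaks alone, with no share over other distal peaks beside it. It was not recounted with lists of equal length, so whether the nesting is particular to clusters was not tested. Member peaks with a Jun-family peak in A549 were acetylated in B2B in 52.3% of cases against 28.2% of those without, a difference of 24.1 points (19.3 to 28.9), and 55.8% of them had a Jun-family peak in B2B. Where all 3 Jun proteins were found in A549, B2B acetylation reached 60.8%. Wider peaks overlap more of every list, and peak width was not standardised in these comparisons.

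The A549 Jun content is given next by the B2B state of the cluster. Any Jun-family peak lay at 24.6% of member peaks in clusters that overlapped a B2B cluster (22.5 to 26.7), at 24.5% in those with B2B peaks only and at 19.5% in those without a B2B peak (16.3 to 22.7). For Jun alone the first and last of these shares were 21.2% (19.2 to 23.1) and 15.4% (12.5 to 18.3), intervals that do not overlap; the difference itself was not tested. In B2B the same 3 classes had Jun-family peaks at 20.3, 14.5 and 4.88% of member peaks. Med1 of A549 lay at 20.1, 26.6 and 20.7%.

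The 15 clusters with the most peaks were led by one wholly within ZMIZ1 (chr10:79073651-79165795), a coregulator of transcription. It held 49 peaks, 39 of them acetylated in B2B, with Med1 at 7 and a Jun-family peak at 11. The cluster around DDIT4, a stress-induced inhibitor of mTORC1, and DNAJB12, a co-chaperone of the endoplasmic reticulum (chr10:72243207-72340912), held 43 peaks, with Med1 at 14, a Jun-family peak at 12 and B2B acetylation at 12. PFKP, a phosphofructokinase of glycolysis (chr10:3071711-3127105), had 37 peaks, with Med1 at 7 and B2B acetylation at 9. These 3 clusters lay on chromosome 10, which had 40.4 clusters per 100 Mb, the highest density of the 12 chromosomes.

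Large clusters differed widely in what they carried. A 31-peak cluster over the non-coding genes LINC-PINT and LINC00513 (chr7:130883154-130925971), 149 kb from the nearest coding start, had Med1 at 23 peaks, pol II at 28, Jun at 12 and all 3 Jun proteins at 4. BIN1, which encodes a membrane-shaping adaptor (chr2:127049627-127105579), had 36 peaks without Med1 at any of them and a Jun-family peak at 1, while 15 were acetylated in B2B. PGD, an enzyme of the pentose phosphate pathway (chr1:10377325-10426924), had 34 peaks with Med1 at 15 and pol II at 26, and none of the 34 was acetylated in B2B. Its span still held 2 B2B H3K27ac peaks, outside the member peaks.

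Of the remaining large clusters, KRT80, an epithelial keratin (33 peaks), was acetylated in B2B at 26 peaks, CTBP2, a corepressor (30 peaks), at 20, and ERGIC1, a protein of the early secretory pathway (31 peaks), at 19. ERGIC1 and PRKAG2, a regulatory subunit of AMP kinase (29 peaks), also carried Jun proteins: JunB lay at 12 of 31 and 7 of 29 peaks, and all 3 Jun proteins at 2 and 5. AOPEP, whose span holds the microRNA genes MIR23B, MIR27B and MIR24-1, had 32 peaks, and B2B acetylation covered 10 of them. The cluster with the starts of PIP5KL1, DPM2 and EEIG1 (36 peaks) was acetylated in B2B at 11, TNS3, a focal adhesion protein (29 peaks), at 14, and the taurine transporter gene SLC6A6 (28 peaks) at 11. SLC6A6 had Med1 at 1 peak and a Jun-family peak at 5.

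**Figure D4:**
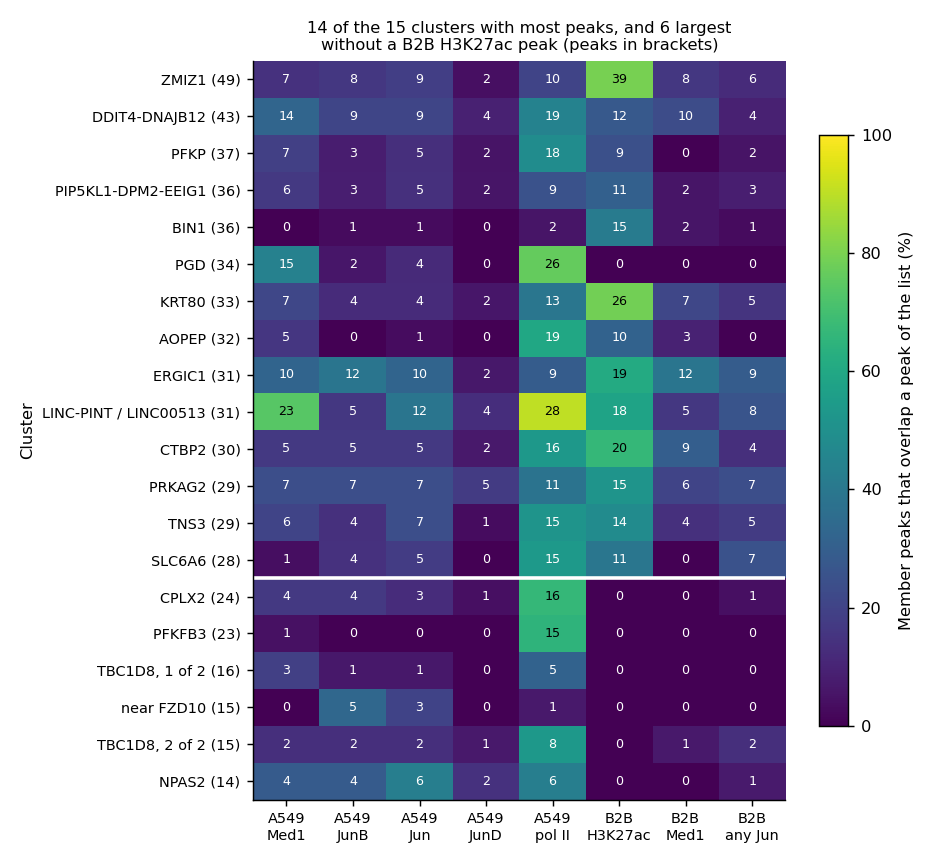
Number of member peaks (printed) and their percentage (color scale, 0 to 100) that overlap a peak of each list, for 14 of the 15 clusters with the most peaks (above the white line) and the 6 largest without a B2B H3K27ac peak in the span (below it); the peaks of each cluster are in brackets. Med1 covers 23 of 31 peaks of the LINC-PINT cluster and 0 of 36 of BIN1, and B2B H3K27ac covers 39 of 49 at ZMIZ1 and 0 of 34 at PGD.

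The 6 largest clusters without any B2B H3K27ac peak in the span were chosen on that absence. CPLX2, which encodes a complexin of synaptic vesicle release (chr5:175829934-175884549), had 24 peaks, with Med1 and a Jun-family peak at 4 each and pol II at 16. PFKFB3, an enzyme that sets the rate of glycolysis (chr10:6205415-6239972), had 23 peaks, with pol II at 15, Med1 at 1 and no Jun-family peak at any of them, although 2 Jun peaks lay elsewhere in the span. A pair of clusters lay in TBC1D8 (16 and 15 peaks) and 1 in the circadian factor gene NPAS2 (14 peaks, with Jun at 6 and Med1 at 4). The cluster near the Wnt receptor gene FZD10 had 15 peaks, with JunB at 5 and Med1 at 0, while 3 Med1 peaks lay between them. Together these 6 had 4 member peaks with a Jun-family peak in B2B: 1 at CPLX2, 2 at TBC1D8 and 1 at NPAS2.

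Full acetylation is easier to reach with few peaks, and the clusters fully acetylated in B2B were smaller. Among the 6 largest were those in STPG4 (11 peaks), in PXN, the focal adhesion adaptor paxillin (9 peaks), and in ZMIZ1, the glucose transporter gene SLC2A1 and ZC3H3 (8 peaks each). PXN had Jun at 4 of 9 peaks in A549 and at 5 in B2B. ZC3H3 had neither Med1 nor a Jun-family peak in its span in A549.

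By share of peaks with all 3 Jun proteins, for which high values are easier to reach with few peaks, the leading clusters were small. The first, 38.2 kb from FCGR2A, had 3 of 5 peaks with the 3 proteins and Med1 at all 5, but 93.9% of the 50-base words of its span occur more than once within it, so its reads are hard to place. Then 5 clusters with 2 of 5 followed, nearest to the starts of PRAG1, MAP1B, GFRA2, PRSS23 and EEPD1, between 23.7 and 168 kb away. The largest of the 48 clusters without a Jun-family peak in the span had 13 peaks and lay 1387 kb from PCDH10 with 79.0% repeated words. The next were in LRP5, a Wnt co-receptor gene (11 peaks), near ADGRD1 (11 peaks) and at PLEC, which encodes the cytoskeletal linker plectin (10 peaks). Med1 was found at 1 of the 11 LRP5 peaks and at none of the other two.

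Extreme shares are easier to reach with few peaks, and the clusters with the highest Med1 shares were small. After the repeated cluster near FCGR2A, they were ALDH1A1, a retinaldehyde dehydrogenase (5 of 5 peaks), AKR1B10, an aldo-keto reductase (8 of 9), KRT8 (6 of 7) and TXNRD1, thioredoxin reductase (6 of 7). Jun-family peaks lay at 2, 1, 2 and 3 of their peaks. B2B acetylation lay at 0 of the ALDH1A1 and AKR1B10 peaks and at 1 of the KRT8 and TXNRD1 peaks.

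Genes were then counted by lists. Of 12569 protein-coding genes on chromosomes 1 to 12, 933 had a start site within 50 kb of a cluster, or 7.42%. The study's own list of oncogenes had 34 of 392 (8.67%, Wilson 95% interval 6.27 to 11.9, which includes the background). With the start site within a span the share was 3.06% (1.76 to 5.27), above the 1.69% of all coding genes. Among those with the largest clusters were FANCC (the AOPEP cluster, 32 peaks), CUX1 (17), the differentiation inhibitor ID3 (17), MEN1 (16) and SETD1B (16). CCND1, the cyclin D1 gene, had a cluster of 6 peaks, with Med1 at 3, a Jun-family peak at 3 and B2B acetylation at 2. EGFR, the epidermal growth factor receptor gene, had a cluster of 7 peaks 30.3 kb from a start site, with Med1 at 4, a Jun-family peak at 3 and 6 acetylated in B2B.

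**Figure D5:**
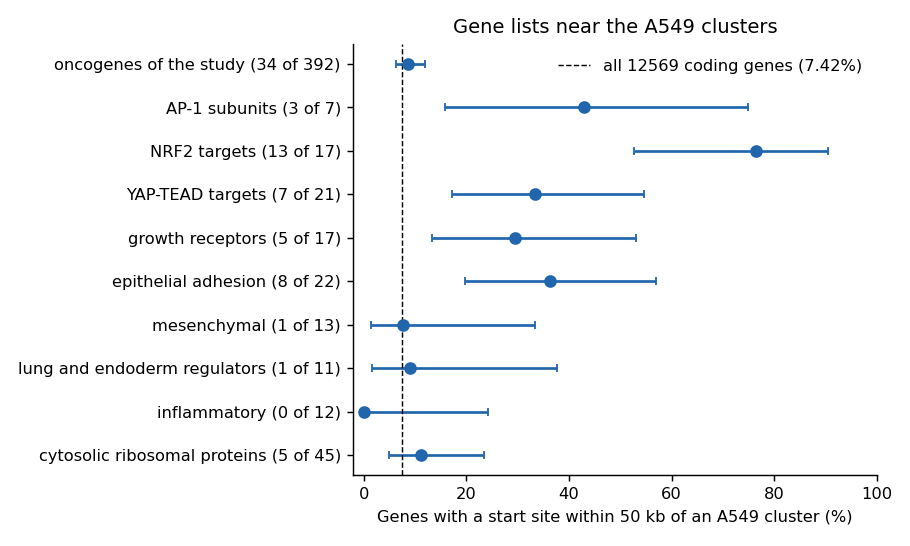
Percentage of the genes of each list on chromosomes 1 to 12 that have a start site within 50 kb of an A549 cluster, with Wilson 95% intervals (counting error only) and the 7.42% of all coding genes as a dashed line. NRF2 targets stand at 13 of 17 genes, and the study's oncogenes, at 34 of 392, have an interval that includes the dashed line.

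NRF2 target genes stood near clusters in 13 of 17 cases (76.5%). NRF2 is the factor that switches on glutathione, thioredoxin and NADPH-producing enzymes, and mutant KEAP1 in A549 leaves it active. Those near a cluster were PGD (34 peaks), TKT and TXNRD1 (24 each), UGDH (14), FTH1 and SQSTM1 (12 each) and 7 more. The latter were the cystine transporter gene SLC7A11 (10), ABCC2, AKR1B10 and EPHX1 (9 each), AKR1C1 (6), and AKR1C2 with AKR1C3 at 1 cluster of 5 peaks. GCLC, GCLM, ME1 and TALDO1 of the list had no cluster within 50 kb. Each gene was assigned to 1 cluster. A second cluster with a TXNRD1 start in its span (7 peaks, Med1 at 6) was therefore counted with the other clusters. The 12 assigned clusters held 168 peaks. Med1 overlapped 85 of them (50.6%, against 22.4% over all clusters), a Jun-family peak 29 (17.3%, against 23.6%) and B2B H3K27ac 10 (6.0%, against 33.9%). At TXNRD1, 20 of 24 peaks had Med1, 8 had a Jun-family peak and 1 was acetylated in B2B. At SLC7A11, Med1 lay at 7 of 10 peaks, a Jun-family peak at 0 and B2B H3K27ac at 0. The clusters differed widely, with Med1 at only 3 of 24 peaks at TKT, 2 of 9 at EPHX1 and 4 of 12 at SQSTM1. No interval by cluster was computed for the pooled shares. None of the 12 clusters overlapped a B2B cluster, 9 had some B2B H3K27ac peak in the span and 3 had none.

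The distal Med1 peaks inside these 12 spans numbered 109, and a Jun-family peak overlapped 31.2% of them, against 63.0% of the 1231 in other clusters. The bases TGACNNNGC, the core of the antioxidant response element bound by NRF2, lay on either strand within 50 bp of 8 of the 109 Med1 summits (7.34%) and of 10.2% of the 1231. The 2 motifs overlap in sequence, and in the other clusters 51 of the 126 windows with TGACNNNGC also held the AP-1 motif. Of the 7486 distal Med1 summits outside clusters 5.09% held it, within the Wilson interval of the 8 of 109 (3.77 to 13.8%), and a Jun-family peak overlapped 58.4% of those Med1 peaks. Over all distal H3K27ac summits the share with TGACNNNGC was 3.99%.

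Most of the other lists were small, so their intervals are wide beside the 7.42% of all coding genes. YAP-TEAD targets, genes of the Hippo pathway, had 7 of 21 near a cluster (33.3%, 17.2 to 54.6), namely MYOF (18 peaks), DOCK5 (13), AMOTL2 (11), WWC1 (10), ARHGEF17 and TEAD1 (6 each) and IGFBP3 (5). Their 69 peaks had Med1 at 24 (34.8%, against 22.4% over all clusters), a Jun-family peak at 23 (33.3%, against 23.6%) and B2B H3K27ac at 38 (55.1%, against 33.9%). Epithelial adhesion genes had 8 of 22 (36.4%, 19.7 to 57.0), among them KRT7 and KRT80 at 1 cluster (33 peaks), KRT18 and KRT8 at another (11), the integrin gene ITGB1 (10) and KRT81 (10). ITGB1 had Med1 at 5 of 10 peaks and B2B acetylation at 0.

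Growth receptor genes had 5 of 17 near a cluster (29.4%, 13.3 to 53.1): EPHA2 (9 peaks, 8 acetylated in B2B), EGFR and FGFR3 (7 each), FGFR1 and IL6R (5 each). Genes of AP-1 subunits and of the related small Maf proteins had 3 of 7 (42.9%, 15.8 to 74.95), with FOSL1 at a cluster of 11 peaks, MAFK at 9 and FOSL2 at 6. FOSL1, which encodes the Fos-family partner FRA1, had Med1 at 6 of its 11 peaks, a Jun-family peak at 1 and B2B acetylation at 5. Mesenchymal genes had 1 of 13 (7.69%). Lung and endoderm regulators had 1 of 11, the epithelial factor gene ELF3 (14 peaks, with Med1 and a Jun-family peak at 6 each). Inflammatory genes had 0 of 12, for which the Wilson interval reached 24.2%, and cytosolic ribosomal protein genes had 5 of 45 (11.1%).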

How the data were processed

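ChIP-seq peak lists of A549 and B2B were analysed. The authors aligned reads to hg38 with Bowtie2 2.4.4, removed duplicates with their own code, merged the 2 replicates and put them on a CPM scale (SAMtools 1.13); peaks are from MACS2 2.2.7.1. Call options and the control used are not given in the sources used here. In the deposited lists the values are fold enrichment (a ratio), −log10 p and −log10 q. Some lists stop early in the genome, so chromosomes 1 to 12 were used. Start sites and genes came from GENCODE release 44 and sequence from hg38.

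Peaks overlapped when they shared 1 bp. Shares have Wilson 95% intervals, and differences Newcombe intervals or intervals with the stitched region as the unit (ratio estimator). Overlap counts and stitching were tested on simulated data against bedtools 2.31.1. Scripts ran in Python 3.11.15 with pandas 2.3.3, NumPy 2.4.6, pysam 0.24.0 and Matplotlib 3.10.9. Of the 618 oncogene symbols, 605 matched directly and 7 through an older symbol.

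Named clusters were the 15 with the most peaks, the 6 largest without and the 6 largest fully with B2B H3K27ac, the 6 with the highest share of peaks with all 3 Jun proteins, the 4 largest without a Jun-family peak, the 5 with the highest Med1 share, and up to 6 members per gene list; CCND1 and the remaining genes of short lists, and the TGACNNNGC search, were added after their values were seen. Windows were taken around the highest-fold Jun peak that overlaps a member peak, in the first clusters with such a peak, none on chromosome 8. Members and lists were chosen with earlier results of these data known. Alternatives were other gaps, peak minimums, distances from start sites, q thresholds, list lengths, overlap rules and width standardisation. A few items that these rules choose are not reported here. The 4 input samples had no peak list and were not analysed here.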

Additional observations from a re-analysis of the deposited data

Results flagged for a closer look

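For 5 lists the difference between member and other peaks was not the same in the 2 lines when the difference itself was tested, with stitched regions as the unit. For Med1 the member peaks exceeded the other peaks by 6.88 points in A549 and by 1.80 in B2B, which left 5.09 points between the lines (2.60 to 7.57). As a ratio, the member share was 44.2% above the other share in A549 and 12.96% above it in B2B, and the Med1 lists were of similar length, with 17994 peaks in A549 and 18546 in B2B. For pol II the difference between the lines was 5.46 points (2.76 to 8.15), with 33170 and 16953 peaks in the lists; as a ratio of member to other share, pol II stood at 1.20 in A549 and 1.17 in B2B.

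For JunB it was 1.69 points (0.286 to 3.09), with 19926 and 6318 peaks; as a ratio of member to other share, JunB stood at 1.16 in A549 and 1.24 in B2B, the opposite order. For JunD it was 1.05 points (0.211 to 1.88), with ratios of 1.33 and 1.29. For H3K4me3 it was -11.9 points (-13.69 to -10.04), with ratios of 0.51 in A549 and 0.354 in B2B, so that points and ratios disagreed in order there too. For Jun the interval of 0.151 points ran from -1.14 to 1.44. Members were chosen on A549 peaks, and the part of peak calling and list length in these values was not tested.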

How the results depend on the processing

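No paired analysis was possible because each list pools its replicates, and for the same reason no replicate could be left out. All 46 recomputed differences kept their direction and 40 kept their side of the threshold (an interval without 0). The 6 that did not were Jun with gaps of at most 5 kb (1.36 points), JunB and Jun with 8 or more peaks per cluster (1.49 and 1.06), and JunB, Jun and JunD standardised for width (1.29, 1.02 and 0.896).

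The number of clusters was 233 with 8 or more peaks, 257 without a start site in the span and 186 with peaks under 1 kb apart counted as 1, the last 2 chosen after seeing the data. With the summit inside the H3K27ac peak, Med1, JunB, Jun and JunD stood at 15.4, 10.8, 9.36 and 4.32% in A549 and at 11.9, 3.54, 7.62 and 1.504% in B2B, and B2B H3K27ac at 30.9%. With lists of equal length, which also shortens A549 H3K27ac and so changes the members, they were 26.5, 14.6, 23.6 and 7.78% in A549, Med1, JunB and Jun were 17.3, 6.35 and 16.8% in B2B, and B2B H3K27ac was 37.8%. With peaks under 1 kb apart counted as 1 the A549 shares were 29.5, 27.8, 29.0 and 11.5%, and B2B H3K27ac 40.9%. B2B H3K27ac was 36.0% with 8 or more peaks, and 30.5% of clusters overlapped a B2B cluster with gaps of at most 5 kb. The motif share of member peaks was 3.6% within 100 bp, below the 4.21% of windows 2 kb away, while other peaks had 3.66% and 3.33%.

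The oncogene share was 5.36% with gaps of at most 5 kb (all coding genes 4.76%), 4.59% with 8 or more peaks (3.93%) and 3.06% for start sites within the span (1.69%). The cause of these changes was not tested. Read depth is unknown, which limits every statement on an absent peak.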

Other observations

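Clusters were spread unevenly over the genome. Chromosome 10 had 54 clusters (40.4 per 100 Mb), chromosome 12 had 50 (37.5) and chromosome 1 had 80 (32.1), while chromosome 4 had 14 (7.36) and chromosome 6 had 23 (13.5). ZMIZ1 and its surroundings alone held 4 clusters, with 49, 8, 8 and 6 peaks. The copy number of these chromosomes in A549 was not examined here.

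A few clusters consisted of repeated sequence. In 16 of the 512, at least 5% of the 50-base words of the span occurred again in it, and in 10 at least 20% did. The largest, near TTC34 (26 peaks, 62.2% repeated words), held 38 Med1 peaks in A549 and 29 in B2B, JunB at 1 member peak in A549, and Jun and JunD at none. A pair of clusters near FRG2B had 98.3 and 99.1% repeated words and no B2B H3K27ac peak in either span. Without these 16 clusters, 4596 member peaks were left, with Med1 at 22.4%, a Jun-family peak at 23.9% and B2B H3K27ac at 34.7%.

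Clusters with and without an annotated start site in the span differed in pol II, which overlapped 45.2% and 36.2% of their member peaks (difference 9.02 points, 4.29 to 13.8), and in JunB, at 18.5 and 21.97% (-3.46 points, -6.14 to -0.779). Med1 lay at 22.2 and 22.8%, with an interval of -4.42 to 3.30 points.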
